A study of Homo sapiens with 4 samples.

Results

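The S100 proteins are a family of small calcium-binding proteins, and 10 of their genes were followed here in the established breast carcinoma line MDA-MB-231 (human): S100A2, S100A3, S100A4, S100A6, S100A8, S100A9, S100A10, S100A11, S100A16 and S100P. They were taken by gene symbol from the authors' deposited comparison sheet, out of 24305 symbols, and each had 1 transcript cluster (the array's unit for a gene). The line was plated at 10000 cells, grown for 24 hours in DMEM with 10% serum and then for 3 days in control or treated medium. Both media were concentrated DMEM diluted with 9 parts of hypotonic saline, and for treated medium alone a BEFE unit's dc DEP EMF had acted on the saline for 30 minutes. Of the 4 samples, a control and a treated sample held gene-level signal, and a control and a treated sample held exon-level signal. The levels were taken as summaries of the same hybridisations, since 5391 of 5391 probe sets found at both levels had identical values. Each medium therefore had 1 column of values, no spread between cultures could be measured, and no test was run. For the RNA check the labels mention 5 biological replicates of each group, and they leave unsaid whether a column comes from 1 array, from a pool or from averaging. All signals and differences below are on the log2 scale unless given as a fold, and a difference is treated minus control.

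S100 proteins usually form dimers whose EF-hand loops bind calcium, which opens a surface that grips partner proteins such as annexins, myosin and ezrin. Several are also released from cells and act on the receptor RAGE (gene AGER), and S100A8 with S100A9 acts on TLR4. The family is often expressed at altered levels in carcinomas, and S100A4 and S100P in particular are studied for their part in invasion and metastasis.

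In treated medium S100P had the highest difference of the 10 genes, and the others differed little. S100P went from a gene-level signal of 7.55 in control medium to 8.53 in treated medium, 1.98-fold, and its 3 brightest exon-level probe sets were on average 10.7-fold higher. With 1 of these 3 left out, because its control signal was under the exon-level floor, the other 2 were on average 8.89-fold higher. The other 9 genes lay between -0.36 (S100A3) and 0.34 (S100A4) at gene level, at most 1.29-fold. Genes were assessed when their average signal in the media was at or above 7.17, a floor set at the median of that average for probe sets with 1 symbol, and the threshold for a call was 2-fold. At gene level 8 of the 10 genes passed that floor, and 0 were at least 2-fold higher and 0 at least 2-fold lower. Among all 12353 genes that passed it, 3.22% and 3.46% were. At 1.5-fold the counts were 1 higher (S100P) and 0 lower, beside 9.46% and 9.74% of all these genes. The median difference of the 8 genes was 0.11, beside -0.01 over the 12353 genes, whose quartiles were -0.26 and 0.25.

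The promoters of S100P, S100A9 and S100A10 are printed because these genes stand for the range of the results. They are a high difference, a neutrophil gene with almost none at gene level, and a gene slightly lower at gene level whose 3 brightest probe sets hardly moved. Each sequence is the 250 bases before the RefSeq gene start on build GRCh38.p14, and capitals mark the motif matches. S100P lies on the plus strand at chr4:6693628-6693877, S100A9 on the plus strand at chr1:153357604-153357853, and S100A10 on the minus strand at chr1:151993860-151994109.
S100P: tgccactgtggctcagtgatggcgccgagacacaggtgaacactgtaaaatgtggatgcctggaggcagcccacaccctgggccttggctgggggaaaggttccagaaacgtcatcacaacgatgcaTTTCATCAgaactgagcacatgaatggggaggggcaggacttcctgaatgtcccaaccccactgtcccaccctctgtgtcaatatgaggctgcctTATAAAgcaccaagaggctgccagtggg
S100A9: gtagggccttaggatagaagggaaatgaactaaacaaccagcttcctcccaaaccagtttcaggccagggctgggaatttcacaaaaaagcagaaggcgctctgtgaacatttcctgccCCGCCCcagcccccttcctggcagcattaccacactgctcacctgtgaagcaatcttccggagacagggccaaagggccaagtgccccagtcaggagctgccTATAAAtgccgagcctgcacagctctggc
S100A10: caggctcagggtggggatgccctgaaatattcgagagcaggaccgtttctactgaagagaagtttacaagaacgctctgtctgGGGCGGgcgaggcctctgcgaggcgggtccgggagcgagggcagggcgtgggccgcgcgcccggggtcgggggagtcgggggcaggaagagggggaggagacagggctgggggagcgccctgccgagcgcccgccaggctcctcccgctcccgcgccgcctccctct

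The motifs were searched on both strands over 300 bases around each start (250 before and 50 after), in 14 promoters of the 10 genes and in 35116 promoters in all. The motif TGATGNAA, the core of the composite element that ATF4 binds with a C/EBP partner, was found in 3.62% of all promoters. Of the 14 promoters 1 held it, that of S100P, on the minus strand beginning 123 bases before the start. TATAAA was found in 11.5% of all promoters and in 5 of the 14, which belong to 4 of the 10 genes because windows of S100A8 overlap. Among these genes were S100P (28 bases before the start) and S100A9 (29 bases before). The Sp1 motif GGGCGG was found in 45.0% of all promoters and in 6 of the 14, from 6 genes. The AP-1 motif TGANTCA was found in 7.71% and in 2 of the 14 (S100A2 and S100A3), and the cyclic AMP element TGACGTCA in 1.85% and 0 of the 14. No 2 of these motifs overlap one another in the printed stretches, and a match describes letters in a window, not a binding site.

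S100P, first found in placenta and known to bind ezrin inside cells and RAGE outside them, had a difference of 0.99 (transcript cluster 16964735, chromosome 4). It was number 407 from the top among the 12353 genes above the floor, 96.7% of which had a lower difference. The authors' deposited table gives it a control over treated ratio of 0.504, just outside the limit of 0.5 below which that table lists a gene as raised. In bulk RNA a larger share of cells with the transcript and more transcript per cell cannot be told apart.

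**Figure D1:**
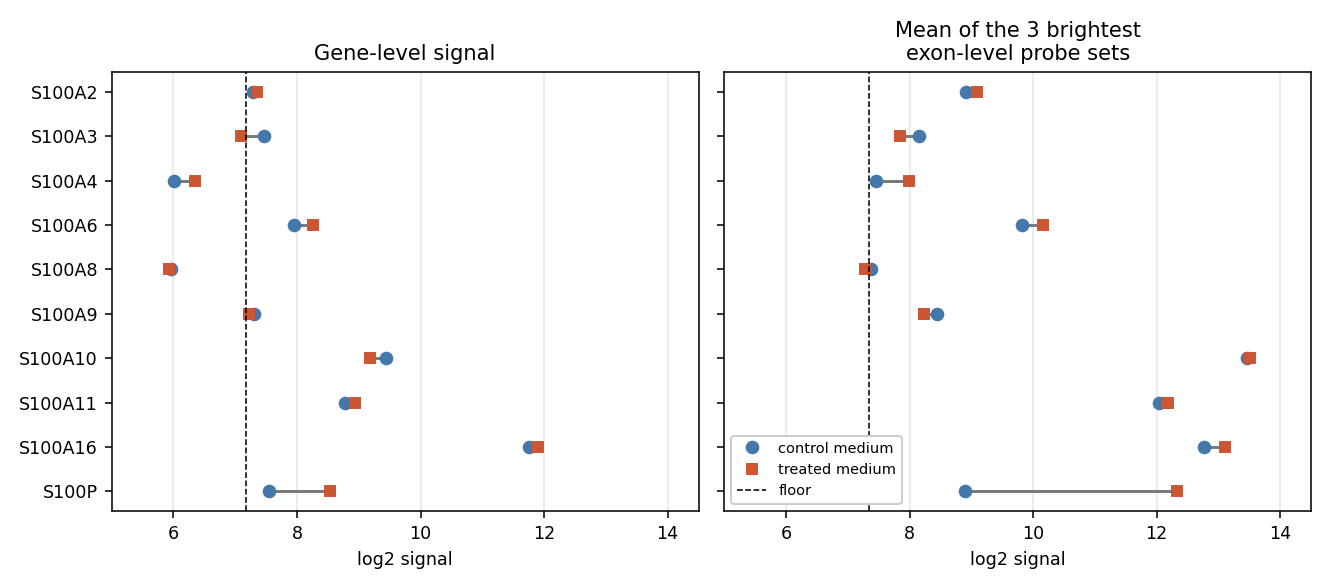
Log2 signal of each S100 gene in control medium (blue circles) and treated medium (red squares), at gene level on the left and as the mean of the gene's 3 brightest exon-level probe sets on the right. Each point is 1 column of values, the dashed line is the floor of that level, and S100P shows the widest gap, from 8.91 to 12.3 on the right.

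The exon-level table splits S100P into 7 probe sets that did not behave alike. Exon-level probe sets were paired with a transcript cluster by their number, which lies between that cluster's number and the next one's. Over 26802 clusters with at least 3 such probe sets, the median exon-level difference correlated with the cluster's own gene-level difference at a Pearson r of 0.964, and with that of the cluster before it at 0.041. These are correlations across clusters of the same hybridisations, given as a description.

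The 3 brightest S100P probe sets had control signals of 6.96, 10.09 and 9.66 and treated signals of 10.91, 13.12 and 12.94. The first, with a control signal under the exon-level floor of 7.34, passed that floor in mean signal only through treated medium, and set against the floor it was at least 11.9-fold higher. The others were 8.17-fold and 9.68-fold higher, and in each of the 3 the treated signal was far above the control signal. The remaining 4 probe sets had control signals from 5.61 to 6.73 and treated signals from 5.92 to 7.37, with differences of 0.21 to 0.64. All 4 were below the exon-level floor in mean signal, and the median difference over all 7 probe sets was 0.64, under 2-fold. The gene-level signal summarises the probes of a cluster together, and its difference of 0.99 lay between the differences of these groups. Whether the dim probe sets measure the same transcript as the bright ones was not tested.

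Taking the 3 brightest probe sets was decided after their values had been seen, so it was applied to all genes as a gauge. In 13714 genes the 3 brightest exon-level probe sets were all above the exon-level floor, and 3.05% of these genes were on average at least 2-fold higher and 3.35% at least 2-fold lower. S100P had a mean difference of 3.42 on that measure, which 15 genes (0.109%), S100P among them, reached. S100P was among the 13714 genes only through the probe set with a control signal under the floor, and that probe set also raised its mean. By the 2 brightest probe sets, its difference was 3.15, which 19 of 15493 genes (0.123%), S100P among them, reached. Of 12918 genes under 2-fold at gene level, 219 (1.7%) passed 2-fold on their 3 brightest probe sets. The 1 (0.00774%) that differed by as much as S100P did was S100P itself. S100P was narrowly in that set, at 0.99, and quantile normalization (1.01) or median centring (1.00) put it at 2-fold. The count also used the probe set with a control signal under the floor, and none was made over the 2 brightest. It therefore does not set S100P apart. The gap between the 3 brightest probe sets of S100P and its gene-level difference was 2.43, the third in size of the 13714 genes. Of these genes, 90% had a gap between -0.32 and 0.30. That gap includes the probe set that passed the exon-level floor only through treated medium, and no gap over the 2 brightest was computed.

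**Figure D2:**
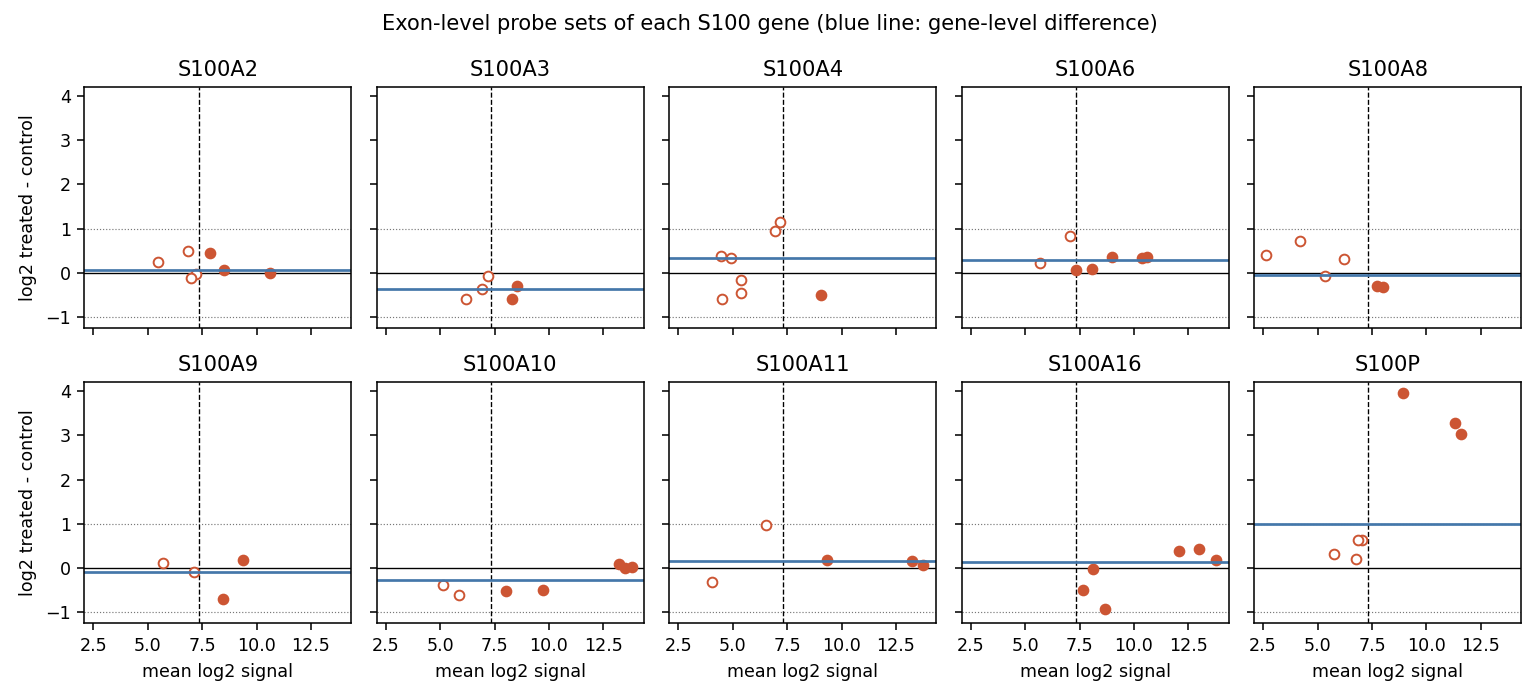
Each panel shows the exon-level probe sets of 1 gene, with the mean log2 signal over both media on the x axis and the log2 difference (treated minus control) on the y axis. Filled points lie above the exon-level floor (dashed line), dotted lines mark 2-fold, and the blue line is the gene-level difference. S100P has 3 points between 3.03 and 3.95, and no filled point of another gene is past 2-fold.

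Across the 10 genes there were 62 exon-level probe sets, of which 32 were above the exon-level floor. Of these 32, 3 were at least 2-fold higher and 0 at least 2-fold lower, and all 3 belonged to S100P. Among the 30 that were above that floor in both media, 2 were at least 2-fold higher, both of S100P, where 3.80% of all such probe sets were. Over 174126 exon-level probe sets above that floor, 4.65% were at least 2-fold higher and 4.85% at least 2-fold lower. The 29 probe sets of the other genes above the floor lay between -0.93 and 0.44.

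S100A4, also called metastasin, which binds non-muscle myosin IIA, was below the gene-level floor, with signals of 6.02 in control medium and 6.36 in treated medium. Of its 8 exon-level probe sets, 1 was above the exon-level floor, with signals of 9.29 in control medium and 8.80 in treated medium. That probe set was thus lower by a difference of -0.49, while the gene-level difference was higher, at 0.34. The next brightest probe sets, just under the floor, had differences of 1.14 and 0.95. The sign for S100A4 therefore depended on the probe set, and no direction is given. In the RefSeq table the ends of S100A4 and S100A5 overlap, which leaves signal there uncertain between these genes.

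S100A6, calcyclin, which binds the ubiquitin ligase adaptor CACYBP, had a gene-level signal of 7.95 in control medium and 8.25 in treated medium, a fold of 1.23. All 5 of its exon-level probe sets above the floor were higher, by 0.07 to 0.36. Its 3 brightest probe sets had a mean of 9.82 in control medium and 10.17 in treated medium, close to the gene-level difference. Such a difference is within the range of most genes, since 80.8% of the genes above the floor lay within 1.5-fold.

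S100A10, also known as p11, binds annexin A2 and gathers plasminogen at the cell surface, and unlike its relatives it does not need calcium to do so. Its gene-level signal was 9.45 in control medium and 9.18 in treated medium, 1.20-fold lower. The 3 brightest probe sets were nearly level, with control signals of 13.48, 13.78 and 13.15 and treated signals of 13.49, 13.80 and 13.24. The other 2 above the floor were lower, by -0.48 and -0.52. The mean difference of the 3 brightest was 0.04, at signals that 0.535% of exon-level probe sets exceeded, and whether differences are compressed at such signals was not tested.

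S100A11, a partner of annexin A1, had a gene-level signal of 8.77 in control medium and 8.93 in treated medium. Its 3 probe sets above the floor had differences of 0.08, 0.16 and 0.19, all higher by little. Several processed copies of S100A11 are listed in RefSeq, so its signal may include theirs. S100A16, a broadly expressed member of the family, had a gene-level signal of 11.76 in control medium and 11.91 in treated medium. All 6 of its exon-level probe sets were above the floor, and they divided by brightness. The 3 brightest were higher by 0.18, 0.43 and 0.38, and the others differed by -0.03, -0.49 and -0.93.

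S100A2, found in basal epithelial cells, and S100A3, a zinc and calcium binder known from hair cuticle, were near the floor. S100A2 had a gene-level signal of 7.29 in control medium and 7.35 in treated medium. Its 3 exon-level probe sets above the floor had differences of 0.01, 0.06 and 0.44, and the brightest of them had 10.62 in both media. S100A3 had a gene-level signal of 7.47 in control medium and 7.10 in treated medium, with the treated value under the floor of 7.17. It was 1.29-fold lower, and its 2 exon-level probe sets above the floor were lower as well, by -0.29 and -0.58.

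S100A8 and S100A9 form calprotectin, the metal-binding complex of neutrophils and monocytes. S100A9 had a gene-level signal of 7.30 in control medium and 7.22 in treated medium, and S100A8, below the floor, had 5.96 and 5.92. At exon level, 2 S100A8 probe sets were above the floor, with differences of -0.32 and -0.30, and the 2 of S100A9 had 0.18 and -0.71. The pair was thus nearly level at gene level and never higher by more than 0.18 in a probe set above the floor. Of 10 neutrophil and monocyte markers, 2 were above the gene-level floor (CD68, which carcinoma cells also express, and ELANE), and the leukocyte marker PTPRC was at 3.81 in both media. CD68 had signals of 11.94 in control medium and 12.22 in treated medium, and ELANE had 7.61 and 7.45. The median difference of the 10 markers without a floor was -0.09. The part of these markers in the S100A8 and S100A9 values was not tested.

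**Figure D3:**
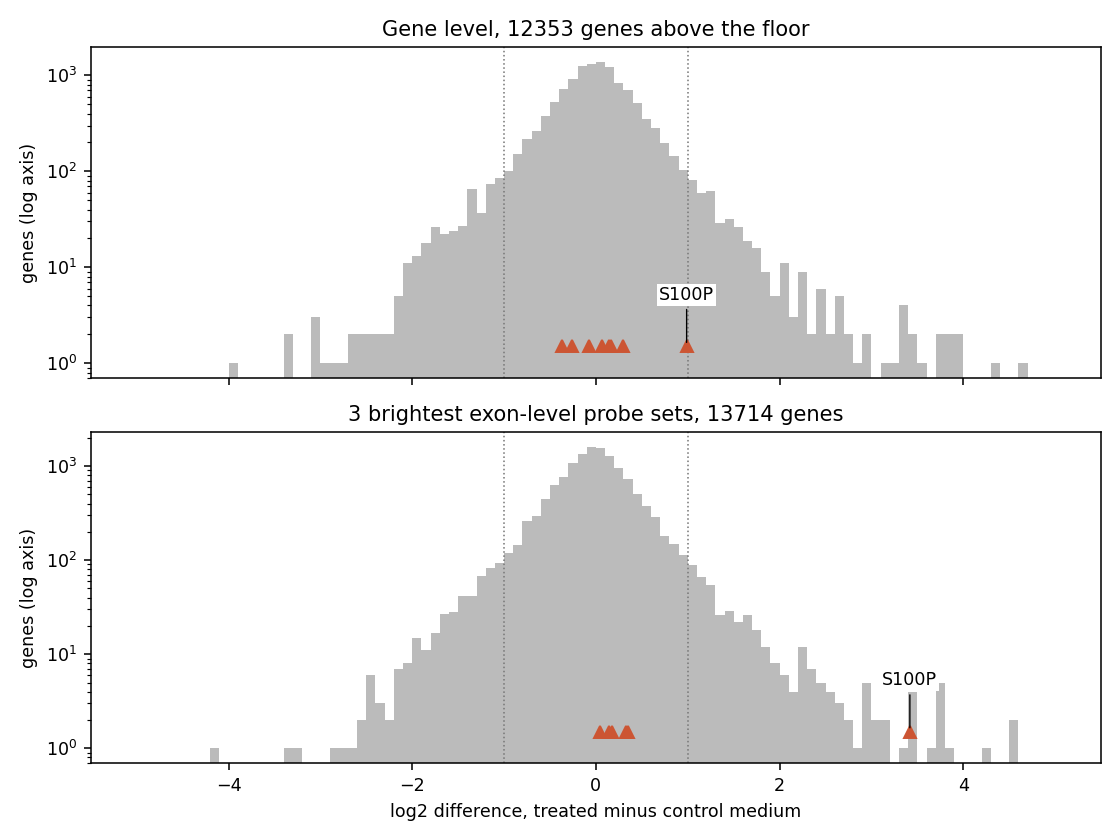
Histograms of log2 differences (treated minus control, log count axis) over 12353 genes above the floor at gene level (top) and over 13714 genes by the mean of their 3 brightest exon-level probe sets (bottom). Red triangles mark the S100 genes that passed each floor (8 and 6), and dotted lines mark 2-fold. S100P moves from 0.99 in the upper panel to 3.42 in the lower one, which it entered only through a probe set above the exon-level floor in treated medium alone.

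Besides S100P there were 5 genes whose 3 brightest probe sets were all above the exon-level floor, S100A2, S100A6, S100A10, S100A11 and S100A16. Their mean differences on those probe sets lay between 0.04 and 0.35. All 5 were under 2-fold, as were most of the 13714 genes on this measure. Of those genes 3.05% were at least 2-fold higher and 3.35% at least 2-fold lower, and their median was -0.02. The sign was not the same at both levels for S100A10, at 0.04 here and -0.26 at gene level.

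Except for S100P, the genes described here lie on chromosome 1, where most of the S100 family forms a cluster. Along the 17 S100 genes of that chromosome measured on the array, 7 had a difference above 0, 9 below 0 and 1 at 0, within -0.57 and 0.37. Signs were mixed along this order. S100A6 (0.30), S100A5 (0.19) and S100A4 (0.34) follow each other, the last 2 of them below the floor, and S100A3, next to S100A4, had a difference of -0.36. For S100A4 the sign depended on the probe set, as described above. Only 8 of the 17 genes were above the floor, 7 of them among the genes described here.

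**Figure D4:**
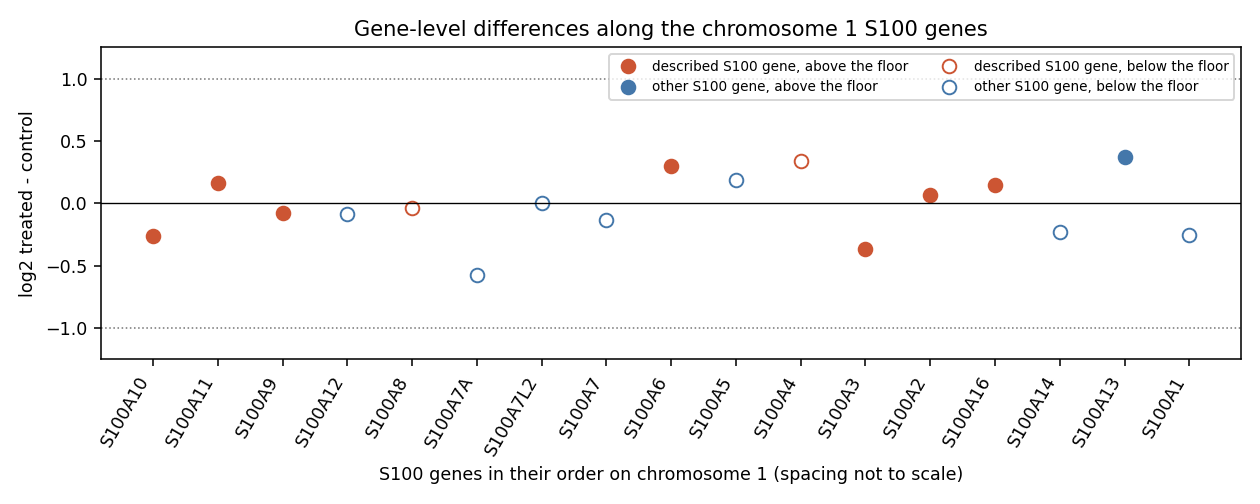
Gene-level log2 difference (treated minus control) of 17 S100 genes in their order along chromosome 1. Filled points are above the floor, red points are the genes described here, and no gene reaches the dotted lines at 2-fold.

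Among 11 other S100 genes, S100A13, which takes part in the release of growth factors without a signal peptide, was the 1 above the floor. It had signals of 8.06 in control medium and 8.43 in treated medium. S100A7, known from skin, S100A12, from neutrophils, and S100B, from brain, were below it, with differences of -0.13, -0.08 and -0.08. S100A13 was 1.29-fold higher and so did not reach 2-fold. Of all 12353 assessed genes 6.69% did in either direction, so 1 gene short of that threshold says little about the wider family.

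Partner genes of the S100 proteins were looked at by group, beside all genes above the floor, of which 6.69% passed 2-fold and 19.2% passed 1.5-fold in either direction. Counts of 0 at 2-fold in lists this small are near that share and do not set a list apart. The 11 annexin genes that passed the floor had a median of 0.03, with 0 at 2-fold in either direction. ANXA6 (-0.41) and ANXA3 (0.39) were furthest from 0. ANXA2, the partner of S100A10, named for that reason, had signals of 9.29 in control medium and 8.94 in treated medium. ANXA8 and its copies ANXA8L1 and ANXA8L2 are near-identical, and their single values are uncertain.

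Of 5 receptors and surface partners, 4 were above the floor, with a median of -0.04 and 0 at 2-fold. ALCAM, an adhesion molecule, was 1.54-fold lower and TLR4 had a difference of 0.36. AGER, the gene of RAGE, to which S100P binds, had signals of 7.79 in control medium and 7.70 in treated medium. The receptor of S100P was thus nearly level while S100P was higher.

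Of 14 intracellular partners, 11 were above the floor, with a median of 0.02, 0 at 2-fold and 3 at 1.5-fold (CACYBP, SUGT1 and PPFIBP1, the last named to complete the count). The members furthest from 0 were both partners of S100A6. CACYBP, calcyclin-binding protein, had signals of 8.45 in control medium and 7.47 in treated medium, 1.98-fold lower, and its exon-level median was -0.98. SUGT1, a co-chaperone of HSP90 related to CACYBP, was 1.61-fold lower. EZR, the ezrin gene, which S100P binds, had signals of 12.12 and 12.03, and MYH9, the myosin that S100A4 binds, had 12.19 and 12.31. Both of these partners were nearly level.

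For plasminogen activation, which S100A10 serves at the cell surface, single genes are given and no count over the list. PLAU, the urokinase gene, was 1.63-fold lower, and PLAT, the tissue activator gene, was 1.46-fold lower. The urokinase receptor gene PLAUR had 12.23 in control medium and 12.35 in treated medium. SERPINB2 (0.81) and PLG (0.40), both below the floor, were higher, and no direction is given for the list.

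**Figure D5:**
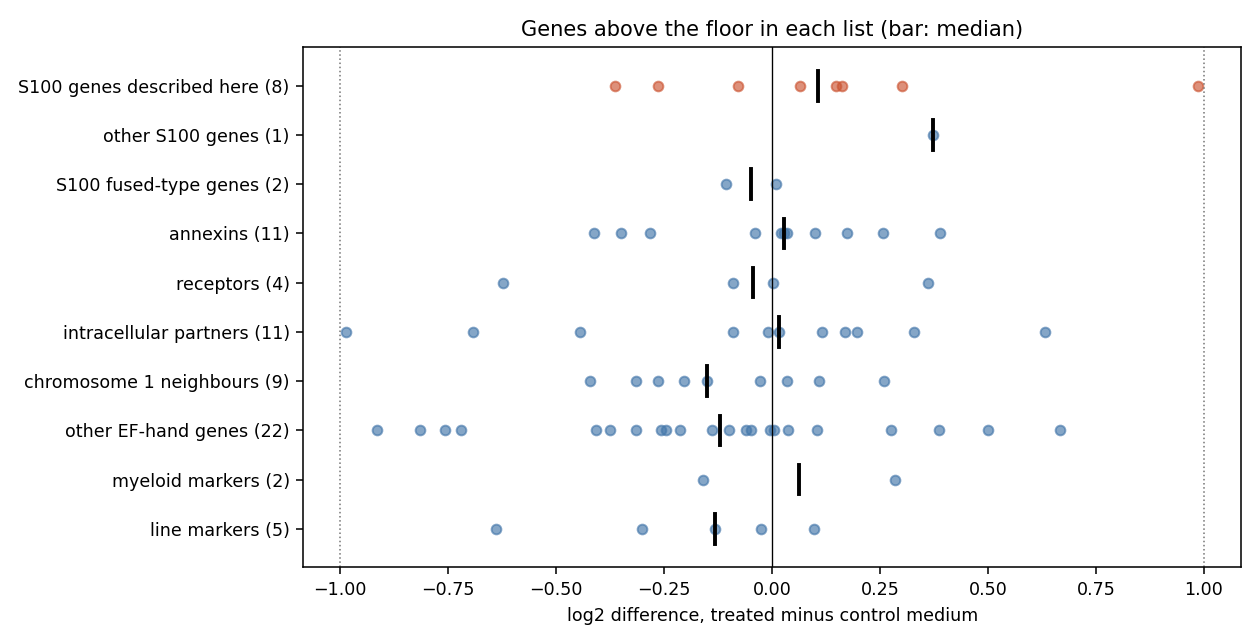
Gene-level log2 differences (treated minus control) of the genes above the floor in each list except plasminogen activation, with the number of genes in brackets, a bar at the median and dotted lines at 2-fold. Among the genes shown, S100P at 0.99 and CACYBP at -0.99 lie just inside it.

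The line's own markers were checked at gene level. VIM, CD44, EGFR and KRT18 were above the floor in both media, and ESR1, PGR and CDH1 were below it. ERBB2, expected to be low, was above the floor, with signals of 9.05 in control medium and 8.41 in treated medium. Median signal over all gene-level probe sets was 6.33 in control medium and 6.31 in treated medium.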

How the data were processed

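RNA of MDA-MB-231 cells was hybridised to an Affymetrix human array after column extraction and whole-transcript amplification, per the labels' protocols. The deposited gene-level (53617 probe sets) and exon-level (352859 probe sets) tables hold log2 signal, for which the submitters' processing notes name RMA and Affymetrix Expression Console, as the authors' tools. Their versions and the genome build are not given in the sources used here. Since RMA equalises the arrays' probe signals before summarising them, a change common to most genes would be largely removed, and signals of different probe sets are not on 1 scale. The authors' deposited sheet holds a linear intensity per medium, equal to the antilog of the gene-level values within 5.03e-05 on the log2 scale, and a control over treated ratio per probe set. Gene symbols came from that sheet (25937 probe sets with 1 symbol).

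Here, differences were computed with Python 3.11.15, numpy 2.4.6 and pandas 2.3.3. A symbol with several transcript clusters was represented by the one with the highest mean signal. The genes at 2-fold, the floor (median of mean signal) and 10 gene lists (119 genes, all matched) are described above, and 2 further list genes are not reported here, so list counts and medians leave them out. Named genes are the S100 genes and, from each list, those at 2-fold and the 2 furthest from 0, and others were named after their values were seen. The S100 genes and lists were chosen with earlier results of these data known. Functions were tested on simulated data. Promoters are RefSeq sequences of GRCh38.p14. Alternatives were other scalings, floors, fold thresholds and exon-level summaries. With 1 column per medium, precision is limited by the number of hybridisations, and no error or p-value is given.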

Additional observations from a re-analysis of the deposited data

How the results depend on the processing

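Whether S100P counted as 2-fold rested on the setting. With quantile normalization (difference 1.01), median centring (1.00), a threshold of 1.5-fold, the exon-level median by probe set number (3.27, over the 3 probe sets above the exon-level floor, and 0.64 over all 7), or the 3 or 2 brightest exon-level probe sets (3.42 and 3.15), 1 S100 gene, S100P, was higher in place of 0. The exon-level median and the 3 brightest counted S100P only through the probe set that passed the exon-level floor through treated medium alone. The 2 brightest did not need that probe set. With no floor, a floor at the 75th percentile, or the mean over all clusters of a symbol the count was 0, and 0 S100 genes were at least 2-fold lower under every alternative run. Without S100P the median of the S100 genes was 0.07 in place of 0.11, and with the floor at the 75th percentile, which left 2 genes, it was -0.06. Both scalings moved the S100 differences by at most 0.04 and changed the sign of 0 of them. Over all genes, 196 were higher and 265 lower with the floor at the 75th percentile, because fewer genes were counted, and 1169 higher and 1203 lower at 1.5-fold, because the threshold is looser.

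The exon-level summaries were chosen after seeing the data. The planned exon-level median through a table pairing probe sets with genes was not run, since no such table was used here, and pairing by number took its place. Leaving out a replicate was not possible with 1 column per medium. No paired analysis was possible because each medium has 1 column of values at each level. S100A4 and S100A8 lay below the floor at gene level, where small signals limit what a difference can show.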

Other observations

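EF-hand genes outside the S100 family were counted in the same way. Of 22 other EF-hand genes above the floor, 15 had a difference below 0 and 7 above, with a median of -0.12, beside -0.01 over all genes (quartiles -0.26 and 0.25), 50.6% of which were below 0. At gene level 0 of the 22 passed 2-fold, beside 6.69% of all genes above the floor in either direction. GCA, the grancalcin gene, was 1.88-fold lower and CETN3, a centrosomal centrin gene, 1.76-fold lower. HPCAL1, the furthest above 0, was 1.59-fold higher. CALM3, a calmodulin gene, was named after its values were seen, with signals of 8.74 in control medium and 7.98 in treated medium. CALM2, another calmodulin gene named after its values were seen, was at 8.79 and 8.90. With medians over exon-level probe sets above the exon-level floor, 3 of 20 were at least 2-fold lower, CALML4 (-1.28), CALM3 (-1.19) and GCA (-1.09), beside 3.51% of 13714 genes. CALML4 had a gene-level difference of -0.32 and was named to complete the count.

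For genes of other families beside the S100 cluster, 9 were above the floor and 0 passed 2-fold, a count near the 6.69% over all genes. The zinc transporter gene SLC39A1 (-0.42) and ILF2 (-0.31), an RNA-binding protein gene, were furthest from 0. Of the S100 fused-type genes of the skin barrier, FLG (-0.11) and CRNN (0.01) were above the floor and the other 5 were below it.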
